A study of Mus musculus with 6 samples.

Results

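The comparison set short against long hyaluronan chains in HL-1 cells, a beating cardiomyocyte line derived from mouse atrium. It held the 2 arrays of cells given the 6-mer oligosaccharide of hyaluronan (o-HA, 6 sugars per chain) and the 2 arrays of cells given 1000 kDa hyaluronan (n-HA), of 6 arrays in the series. The other 2 arrays carried RNA of untreated HL-1 cells, which are shown beside the treated ones and entered the estimate of spread. All cells grew in Claycomb medium and were of the same line, so each group is a model of 1 immortalised atrial line and not of heart tissue. RNA was hybridized to an Illumina MouseRef-8 beadchip with 25697 probes. A probe entered the comparison when its detection p-value was under 0.05 on at least 2 of the 4 hyaluronan arrays, which left 5320 probes of 4231 genes. Per the study's methods o-HA was added at a higher mass concentration than n-HA, so chain length and dose cannot be told apart. Each group also had its own pair of neighbouring places on 1 chip, so place and group cannot be told apart either.

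Hyaluronan is an unbranched polysaccharide of the extracellular matrix, made at the plasma membrane by the hyaluronan synthases and cut by hyaluronidases and lysosomal glycosidases. Cells bind it through surface receptors, of which CD44 is the best known, and take fragments up into lysosomes. Long chains bind many receptor molecules at a time and are known as space-filling matrix, while short oligomers bind singly and have been linked to inflammatory signalling through Toll-like receptors in other cell types. The comparison addressed whether cardiomyocytes that meet short chains differ in transcription from those that meet long ones.

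The arrays differed before any gene was looked at. Values are background-corrected, quantile-normalized intensities on the log2 scale, and a difference is o-HA minus n-HA on that scale throughout. The detected probes numbered 5504 and 5443 on the o-HA arrays, 4767 and 4546 on the n-HA arrays, and 5763 and 5449 on the untreated arrays. Bead intensity averaged 125.1 and 131.8 with o-HA but 110.1 and 93.3 with n-HA. n-HA replicate 1 stood apart, with a correlation of 0.800 to 0.861 with the other 5 arrays across probes, against 0.961 to 0.990 among those 5. Within the 5, o-HA and untreated arrays correlated at 0.981 to 0.987. n-HA replicate 2 correlated with the o-HA and untreated arrays at 0.961 to 0.969. The SD of the differences over the 5320 probes was 0.264 between the 2 o-HA arrays and 0.979 between the 2 n-HA arrays. Between the o-HA mean and each n-HA array it was 1.03 for n-HA replicate 1 and 0.442 for n-HA replicate 2. Between the o-HA mean and the untreated mean it was 0.269. The 2 n-HA arrays were therefore further from each other than n-HA replicate 2 was from the o-HA arrays. Results that rest on the n-HA mean are given with each n-HA array shown. Higher or lower with o-HA is relative to n-HA and does not say which group differed from untreated cells.

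**Figure D1:**
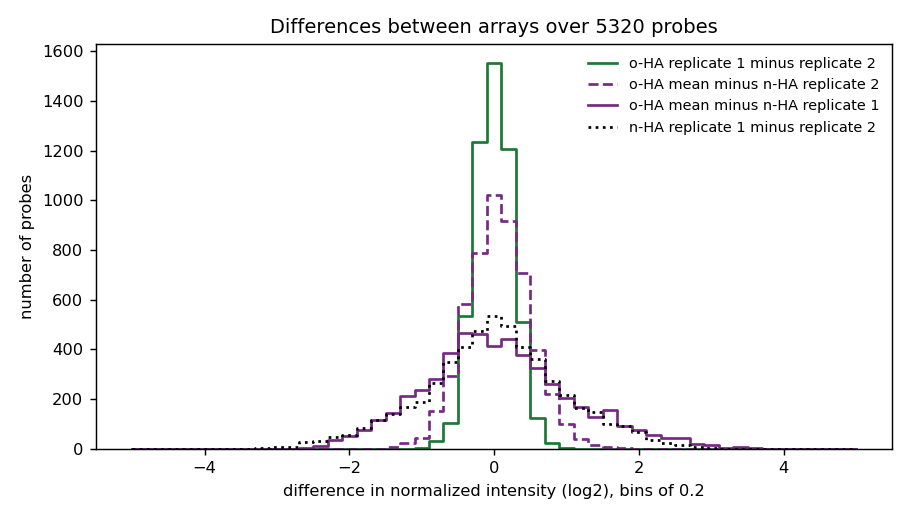
Number of probes (vertical axis) by difference in normalized intensity on the log2 scale (horizontal axis, bins of 0.2) for 4 differences between arrays, over the 5320 probes tested. The o-HA replicates differ least (SD 0.264), n-HA replicate 2 lies 0.442 (SD) from the o-HA mean, and both curves that hold n-HA replicate 1 are the widest (SD 1.03 and 0.979).

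With all 6 arrays, no probe passed the test of o-HA against n-HA over the spread between replicates. Limma called 0 of the 5320 probes (0.0%) at an adjusted p of 0.05, the smallest value being 0.300. Before adjustment, p was under 0.05 for 508 probes higher with o-HA (9.55% of those tested) and for 288 lower (5.41%). Both o-HA arrays lay above both n-HA arrays for 1443 probes (27.1%), and below them for 1184 (22.3%). The genes named below from these sets are therefore given as values on each array, and none of them is called changed. The differences of o-HA replicate 1 from n-HA replicate 1 and of o-HA replicate 2 from n-HA replicate 2, which share no array, correlated across the 5320 probes at r = 0.253, and the crossed pairs at r = 0.283. These are descriptions across probes of 1 chip, which are not independent.

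The probes with the smallest p-values that were higher with o-HA included genes of chromatin, membrane traffic, mitochondria and the lysosome. Ehmt1 encodes a methyltransferase that places repressive marks on histone H3. Its probe read 6.65 and 6.25 with o-HA, against 4.51 and 4.53 with n-HA, where neither n-HA array detected it, and was at least 3.04-fold higher with o-HA. The groups stood far apart, and the untreated arrays, at 6.71 and 6.54, lay beside the o-HA arrays. The other probes of Ehmt1 did not show this. They read 6.95 and 6.94 with o-HA, against 7.04 and 6.75 with n-HA at a difference of 0.05, SE 0.22, and 6.09 and 5.49 with o-HA, against 7.26 and 5.51 with n-HA at -0.59, SE 0.63. Asah1, which encodes the acid ceramidase of the lysosome, had the largest measured difference of these probes (2.17, SE 0.30, adjusted p = 0.300). It read 6.94 and 6.85 with o-HA, against 4.40 and 5.05 with n-HA, and 6.92 and 7.32 in untreated cells. Syngr2, a protein of small cytoplasmic vesicles, read 6.07 and 5.89 with o-HA, against 4.35 and 4.37 with n-HA and was at least 2.20-fold higher with o-HA. Both o-HA arrays were also above the untreated ones (5.42 and 5.49).

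Other genes of vesicle traffic stood in the same set. Rer1, which returns proteins from the Golgi to the endoplasmic reticulum, read 5.92 and 5.72 with o-HA, against 4.43 and 4.29 with n-HA (at least 1.96-fold higher with o-HA). Rab8a, a GTPase of transport to the plasma membrane, read 5.87 and 5.76 with o-HA, against 4.49 and 4.29 with n-HA (at least 1.96-fold). Snx17, a sorting nexin that recycles integrins and lipoprotein receptors, read 6.08 and 5.75 with o-HA, against 4.21 and 4.55 with n-HA (at least 2.10-fold). None of these 3 probes was detected on an n-HA array. For Rab8a and Snx17 the second probe pointed the other way on n-HA replicate 1 alone. That of Rab8a read 6.01 and 6.25 with o-HA, against 8.0 and 6.05 with n-HA, and that of Snx17 7.16 and 7.60 with o-HA, against 9.69 and 7.26 with n-HA, with n-HA replicate 1 the highest and n-HA replicate 2 close to the o-HA arrays.

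Mtfr1l, a regulator of mitochondrial shape, read 5.97 and 5.92 with o-HA, against 4.42 and 4.44 with n-HA (at least 2.14-fold higher with o-HA), and Chchd5, a small protein of the mitochondrial intermembrane space, read 6.17 and 6.06 with o-HA, against 4.58 and 4.62 with n-HA (at least 2.41-fold). In both, the untreated arrays (5.82 and 5.88 and 5.96 and 5.97) were near the o-HA arrays and the n-HA arrays stood together below. Capns1, the regulatory subunit of the calpain proteases, read 6.65 and 6.23 with o-HA, against 4.39 and 4.72 with n-HA (at least 3.02-fold higher with o-HA). Asl, argininosuccinate lyase of the arginine and urea pathway, was detected on all 4 arrays and read 6.18 and 6.37 with o-HA, against 4.90 and 4.91 with n-HA (1.37, SE 0.22). Its second probe pointed the same way, at 6.28 and 6.14 with o-HA, against 4.79 and 5.26 with n-HA (1.19, SE 0.28). Lhfp, a membrane protein of the tetraspan family, read 6.78 and 6.61 with o-HA, against 4.38 and 5.17 with n-HA (1.92, SE 0.31). Rbbp7, a histone-binding subunit shared by several chromatin complexes, read 5.75 and 6.04 with o-HA, against 4.33 and 4.59 with n-HA on its dimmest probe (at least 2.07-fold higher with o-HA), and has 2 brighter probes described below.

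Of the 12 probes of smallest p-value that were lower with o-HA, 10 were detected on at least 1 o-HA array, with differences from -0.98 to -1.77. Nuak2, a kinase of the AMPK family, read 6.55 and 6.61 with o-HA, against 7.77 and 7.50 with n-HA (-1.05, SE 0.23, adjusted p = 0.310). It was detected on every array, and the untreated arrays (6.39 and 6.59) lay with the o-HA arrays. In bead intensity before normalization its groups overlapped, at 148.1 and 164.8 with o-HA, against 210.4 and 139.3 with n-HA. With no normalization between arrays, 137 probes were lower with o-HA without overlap, against 1184 after it. Slc6a9, the glycine transporter GlyT1, had the largest difference of the 12 (-1.77, SE 0.44), at 6.31 and 6.22 with o-HA, against 8.71 and 7.37 with n-HA. Here the n-HA arrays differed from each other by more than n-HA replicate 2 did from the o-HA arrays. Idh3a, the catalytic subunit of the NAD-dependent isocitrate dehydrogenase of the tricarboxylic acid cycle, read 4.75 and 4.71 with o-HA, against 5.66 and 5.95 with n-HA (-1.08, SE 0.24). Dhx30, a helicase of mitochondrial RNA granules, read 4.62 and 4.73 with o-HA, against 6.28 and 5.64 with n-HA and was at least 2.33-fold lower with o-HA, being detected on no o-HA array. Agpat5, an acyltransferase that makes phosphatidic acid, read 4.47 and 4.40 with o-HA, against 5.39 and 5.23 with n-HA (at least 1.49-fold lower), and no untreated array detected it either.

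Of the other lower probes, Erich5 read 6.01 and 5.99 with o-HA, against 7.45 and 6.95 with n-HA, and Kcp, a secreted modulator of bone morphogenetic protein signals, read 5.53 and 5.39 with o-HA, against 6.30 and 6.60 with n-HA. Rhbdl2, a membrane protease of the rhomboid family, read 6.0 and 5.58 with o-HA, against 7.12 and 6.65 with n-HA. These 3 were detected on all arrays, with differences of -1.20, -0.99 and -1.10 and no overlap between the groups after normalization. In bead intensity before normalization the groups overlapped for Erich5 (115.8 and 121.8 with o-HA, against 172.5 and 113.1 with n-HA). They also overlapped for Rhbdl2 (115.7 and 102.9 with o-HA, against 145.6 and 101.3 with n-HA). Those of Kcp did not overlap (95.1 and 94.8 with o-HA, against 102.1 and 100.1 with n-HA). Lrrc3b, a leucine-rich repeat membrane protein, read 5.49 and 5.83 with o-HA, against 6.66 and 6.73 with n-HA, the 2 n-HA arrays being closer together than the o-HA arrays. Caskin2, a scaffold protein, read 4.83 and 5.06 with o-HA, against 6.29 and 5.78 with n-HA, and Tcp11l1 read 4.85 and 4.61 with o-HA, against 5.87 and 5.55 with n-HA. Lhx5, a homeobox factor of the developing forebrain, read 5.07 and 4.58 with o-HA, against 6.02 and 5.80 with n-HA, and was detected on 1 o-HA array.

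**Figure D2:**
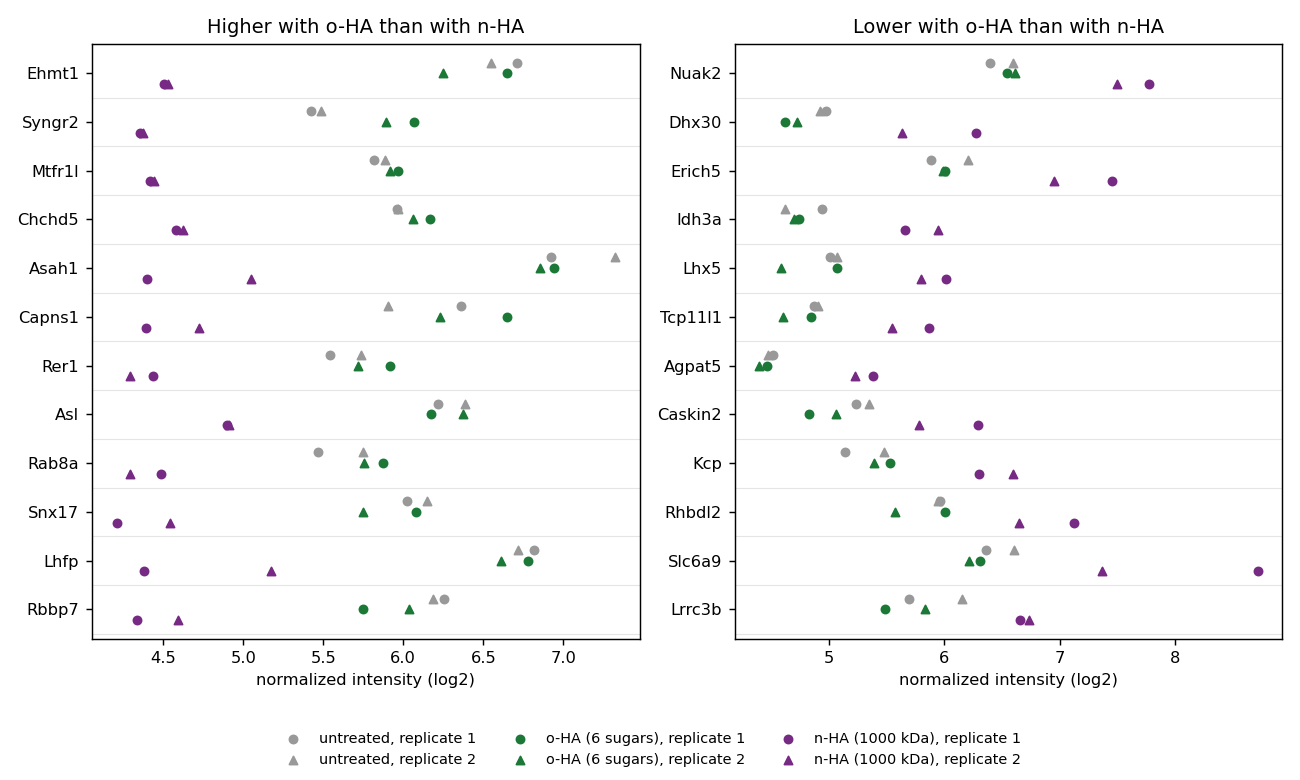
Normalized intensity (log2, horizontal axis) of the 12 genes with the smallest p-values in each direction among probes whose o-HA and n-HA arrays did not overlap, 1 point per array. The untreated points lie nearer the o-HA points than the n-HA points for most genes, as for Ehmt1 (6.71 and 6.54 untreated, 6.65 and 6.25 with o-HA, 4.51 and 4.53 with n-HA), and none of these probes passed over all probes tested.

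Loss of detection ran mainly one way. Of 4530 probes detected on both o-HA arrays, 3103 were detected on both n-HA arrays, 919 on 1 n-HA array and 508 (11.2%) on neither. The reverse, on both n-HA arrays and neither o-HA array, held for 106 probes. Of the 508 probes, 318 were detected on both untreated arrays. The n-HA arrays were the dimmer ones, and the part of brightness in this asymmetry was not tested. Among the 1434 probes with a mean log2 intensity under 5 over the 6 arrays, 25.2% were higher with o-HA without overlap and 15.8% lower. Among the 1584 between 5 and 6 these shares were 28.9% and 23.2%, and among the 802 between 6 and 7 they were 30.3% and 25.3%. Over 7 they were close to each other, with 26.1% and 25.8% of the 598 probes between 7 and 8, and 23.6% and 25.5% of the 275 over 10. The excess of higher probes thus lay under a mean of 7. The detection filter let in probes seen on the o-HA arrays alone (508) more often than the reverse (106). With no filter on dim probes, 4609 were higher and 4898 lower without overlap. Among probes detected on all 4 hyaluronan arrays, 648 were higher and 946 lower. The part of the filter in the excess was not tested.

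Genes read by several probes show whether a difference is shared by more than a single oligonucleotide. At least 2 probes were tested for 620 genes (1368 probes). All probes of 78 of these genes (12.6%) were higher with o-HA without overlap, and all probes of 23 (3.71%) were lower. In 315 genes (50.8%) the probes had 1 sign, and in the rest, nearly as many, they differed in sign. The genes described next were picked because all their probes agreed, so their agreement is no support for a difference. The probes of a gene share arrays and RNA, so they are not replicates of the treatment.

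Rbbp7 had the largest median difference of these genes (1.97 over 3 probes). Its brightest probe read 10.11 and 10.09 with o-HA, against 6.44 and 9.17 with n-HA (2.30, SE 0.82), and the middle one 9.01 and 8.62 with o-HA, against 5.59 and 8.10 with n-HA (1.97, SE 0.76). On all 3 probes n-HA replicate 1 was lowest, and n-HA replicate 2 lay between it and the o-HA arrays. Syngr2 followed (median 1.62). Its brightest probe read 7.72 and 7.62 with o-HA, against 5.08 and 6.86 with n-HA and its remaining probe 5.59 and 5.42 with o-HA, against 4.31 and 5.09 with n-HA. Eef2, the elongation factor that moves the ribosome along the mRNA, read 10.24 and 9.96 with o-HA, against 7.83 and 9.34 with n-HA on its brightest probe, 9.46 and 9.01 with o-HA, against 7.09 and 8.26 with n-HA on the next and 7.99 and 7.70 with o-HA, against 5.62 and 7.12 with n-HA on the dimmest, with differences of 1.51, 1.55 and 1.48. The 3 probes thus gave similar differences at different levels. Rab7, a GTPase of late endosomes and lysosomes, read 8.51 and 8.53 with o-HA, against 5.44 and 8.07 with n-HA and 7.16 and 7.17 with o-HA, against 4.88 and 6.74 with n-HA on its 2 probes, where n-HA replicate 1 was lowest and n-HA replicate 2 lay just below the o-HA arrays.

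Decr2, a peroxisomal reductase needed to oxidise unsaturated fatty acids, read 7.13 and 6.72 with o-HA, against 4.28 and 6.08 with n-HA (1.75, SE 0.58) and 6.56 and 6.56 with o-HA, against 4.42 and 6.18 with n-HA (1.26, SE 0.55). Sqle, squalene epoxidase of cholesterol synthesis, read 7.05 and 6.75 with o-HA, against 4.51 and 6.18 with n-HA (1.55, SE 0.53) and 7.01 and 7.01 with o-HA, against 4.85 and 6.60 with n-HA (1.28, SE 0.55). For both genes the order of the arrays was the same on the 2 probes at group level, with n-HA replicate 1 lowest. Chic2, a palmitoylated protein of vesicle membranes, read 9.76 and 9.67 with o-HA, against 7.16 and 9.50 with n-HA and 8.84 and 8.85 with o-HA, against 6.21 and 8.73 with n-HA. Wwtr1, which encodes the Hippo pathway coactivator TAZ, read 6.87 and 7.12 with o-HA, against 4.36 and 6.60 with n-HA and 7.35 and 7.69 with o-HA, against 5.34 and 7.30 with n-HA. In these 2 genes n-HA replicate 2 lay close below the o-HA arrays, and the difference rested mainly on n-HA replicate 1.

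Among genes with all probes lower, Fadd, the adaptor of death receptors, had the largest median difference (-0.93). It read 5.93 and 6.21 with o-HA, against 7.47 and 6.56 with n-HA on one probe and 6.44 and 6.49 with o-HA, against 7.96 and 6.78 with n-HA on the other. Ddrgk1, which anchors the UFM1 ligase to the endoplasmic reticulum, read 7.30 and 7.47 with o-HA, against 9.35 and 7.75 with n-HA and 8.81 and 8.97 with o-HA, against 9.98 and 9.06 with n-HA. Actc1, the cardiac alpha actin of the sarcomere, read 6.68 and 6.91 with o-HA, against 8.95 and 7.32 with n-HA (-1.34, SE 0.52) and 5.48 and 5.41 with o-HA, against 5.92 and 5.66 with n-HA (-0.35, SE 0.25). On its brighter probe n-HA replicate 1 was far above all other arrays. The same held for Nav1, a guide of neuronal microtubules (7.51 and 7.24 with o-HA, against 8.69 and 7.62 with n-HA and 6.80 and 7.03 with o-HA, against 8.53 and 7.11 with n-HA), for Jpt1 on its brighter probe (6.14 and 6.14 with o-HA, against 8.30 and 6.37 with n-HA) and for Rpl23, a protein of the large ribosomal subunit, on its brighter probe (11.56 and 11.55 with o-HA, against 13.15 and 11.76 with n-HA). The dimmer probes of Jpt1 (4.82 and 5.11 with o-HA, against 5.40 and 5.33 with n-HA) and Rpl23 (6.05 and 6.27 with o-HA, against 6.93 and 6.51 with n-HA) and both probes of Rrp1b, a nucleolar protein of ribosome assembly (5.84 and 5.90 with o-HA, against 6.89 and 6.44 with n-HA and 7.90 and 7.51 with o-HA, against 8.87 and 8.07 with n-HA), showed both n-HA arrays above both o-HA arrays. Mcf2l read 5.03 and 5.12 with o-HA, against 5.66 and 5.58 with n-HA and 6.54 and 6.23 with o-HA, against 7.50 and 6.93 with n-HA.

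**Figure D3:**
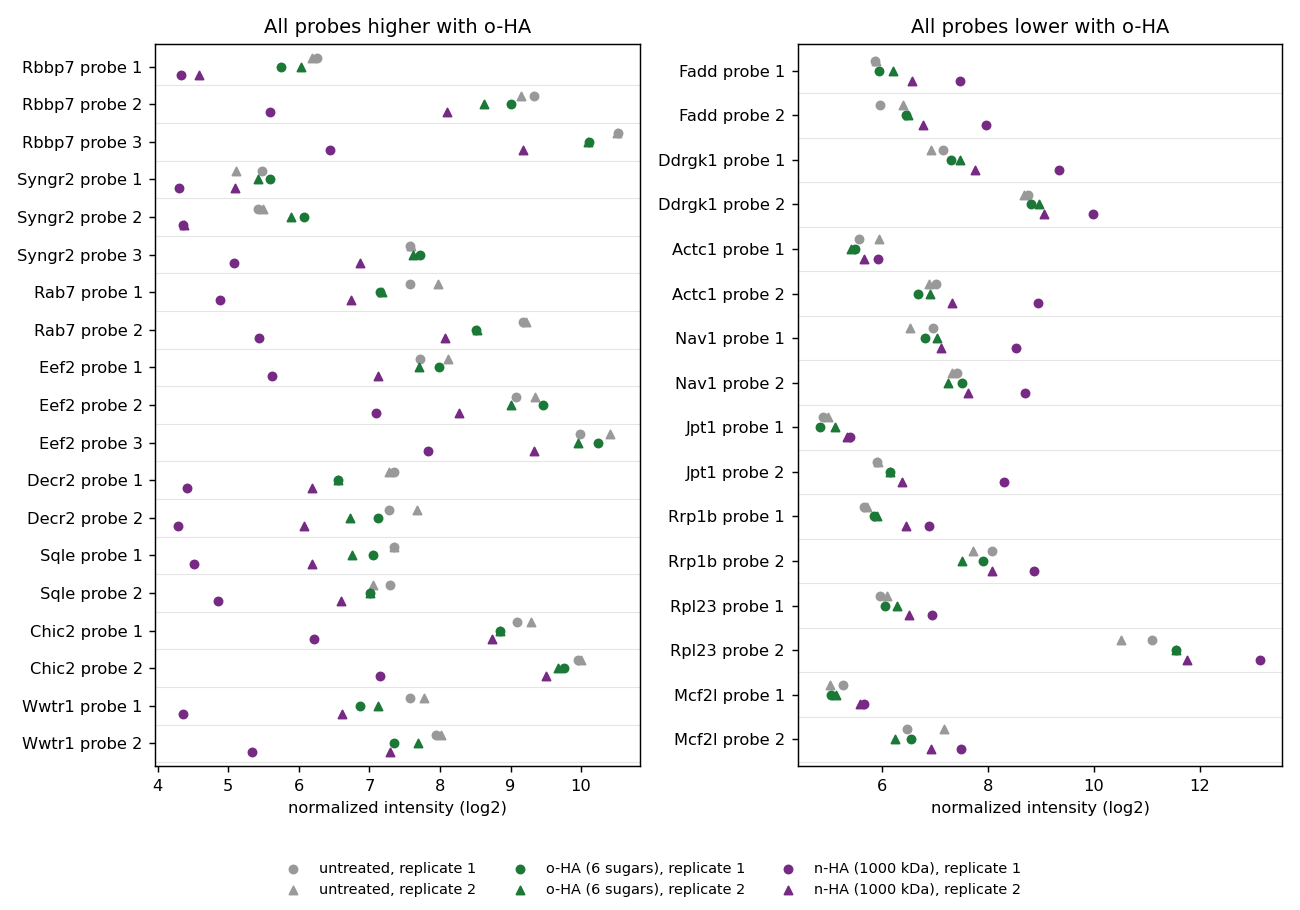
Normalized intensity (log2, horizontal axis) on each of the 6 arrays for the 8 genes per direction with the largest median difference among genes whose every tested probe (2 or 3) had non-overlapping o-HA and n-HA arrays. n-HA replicate 1 (circle) lies outermost on most probes, and n-HA replicate 2 (triangle) lies between it and the o-HA points, as for the brightest Rbbp7 probe (10.11 and 10.09 with o-HA, 6.44 and 9.17 with n-HA).

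Without n-HA replicate 1 the comparison set 2 o-HA arrays against 1 n-HA array, with the spread taken from the untreated and o-HA pairs. The lone n-HA array is then assumed to vary like the other groups. In that fit 580 of 4854 probes passed by limma, 370 higher with o-HA (7.62%) and 210 lower (4.33%). Among them 261 named probes higher and 138 lower were detected on both arrays of the brighter group and had n-HA replicate 1 on the same side as well. On n-HA replicate 1 the o-HA mean differed in the same direction for 293 of the 370 higher probes and 165 of the 210 lower ones, and when n-HA replicate 2 was left out instead, 52 and 4 of them passed in the opposite direction. Ehmt1, Syngr2, Mtfr1l, Chchd5, Asah1, Capns1, Rer1, Rab8a and Lhfp, described above, were 9 of the 10 largest of these on the higher side. Their adjusted p-values were between 0.00245 and 0.00337. The tenth was Dgat2, which makes triglycerides in lipid droplets, at 6.54 and 6.64 with o-HA, against 5.49 and 4.93 with n-HA (difference without n-HA replicate 1 1.72, adjusted p = 0.00245). For Dgat2 n-HA replicate 2 was the lower of the 2 n-HA arrays.

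On the lower side the 10 largest comprised Idh3a, given above, and 9 other genes. Ccdc189, a protein of cilia and sperm tails, read 5.0 and 4.95 with o-HA, against 5.52 and 6.41 with n-HA (difference without n-HA replicate 1 -1.49, adjusted p = 0.00245). AY074887 read 4.97 and 4.83 with o-HA, against 5.62 and 6.32 with n-HA (-1.48, adjusted p = 0.00301). Map3k20, a stress-activated kinase also called ZAK, read 4.82 and 5.24 with o-HA, against 5.62 and 6.34 with n-HA (-1.37), and its second probe 4.25 and 4.74 with o-HA, against 5.11 and 4.41 with n-HA. Atp2b4, a calcium pump of the plasma membrane, read 5.31 and 5.40 with o-HA, against 5.65 and 6.54 with n-HA (-1.23), and Hnrnpab, an RNA-binding protein, read 4.90 and 5.08 with o-HA, against 5.36 and 6.27 with n-HA (-1.34). Vil1, an actin-bundling protein of microvilli, read 4.65 and 5.01 with o-HA, against 5.26 and 6.06 with n-HA. Caskin1 read 4.89 and 5.15 with o-HA, against 5.64 and 6.28 with n-HA, Fam83f read 4.98 and 5.16 with o-HA, against 5.45 and 6.41 with n-HA, and Arxes2 read 4.98 and 5.07 with o-HA, against 5.08 and 6.25 with n-HA. These probes were dim, and in bead intensity before normalization the groups overlapped for all but Idh3a, Ccdc189 and AY074887. Atp2b4 read 87.5 and 94.8 with o-HA, against 85.3 and 98.3 with n-HA, and 99.4 and 88.9 in untreated cells. Arxes2 read 78.2 and 82.8 with o-HA, against 76.1 and 89.7 with n-HA. After normalization n-HA replicate 2 was the highest of the 6 arrays in all 10 genes, which a ranking on that n-HA array alone favours. With the other n-HA array left out in turn, 3022 of 5032 probes passed (1572 higher and 1450 lower), which rests on the array that stood apart.

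Genes of hyaluronan itself were mostly dim in these cells. The synthase genes Has1, Has2 and Has3, the receptor genes Hmmr and Tlr4, and Ugdh, which makes the glucuronic acid precursor, were not tested, since they were detected on 0 or 1 of the 6 arrays. Cd44 had 6 probes, of which 1 was tested and read 4.80 and 4.69 with o-HA, against 5.0 and 4.25 with n-HA (0.12, SE 0.31, 95% interval -0.65 to 0.88), close to background. The others were detected on 0 arrays. Tlr2, a Toll-like receptor that has been linked to hyaluronan fragments, read 4.80 and 4.43 with o-HA, against 4.43 and 4.97 with n-HA (-0.08, SE 0.28, 95% interval -0.77 to 0.60). For both genes the groups overlapped, and the interval allows a change of either sign. The hyaluronidases stood on opposite sides. Hyal1, which works in the lysosome, read 5.62 and 4.90 with o-HA, against 4.88 and 4.67 with n-HA (0.49, SE 0.31), and Hyal2, which is anchored to the cell surface, read 5.97 and 5.72 with o-HA, against 7.36 and 6.16 with n-HA (-0.91, SE 0.41), both without overlap. Untreated cells read 4.90 and 4.64 for Hyal1 and 5.62 and 5.51 for Hyal2. In bead intensity before normalization Hyal2 overlapped, at 113.9 and 108.7 with o-HA, against 163.5 and 87.9 with n-HA, and Hyal1 did not. Of 9 tested genes of hyaluronan breakdown, binding and reception, 5 were higher and 4 lower with o-HA, and 0 passed. Susd2 read 4.94 and 5.01 with o-HA, against 4.56 and 4.81 with n-HA, and Itih4, a relative of the heavy chains that bind hyaluronan in serum, read 6.70 and 6.72 with o-HA, against 4.66 and 6.73 with n-HA, with n-HA replicate 2 level with the o-HA arrays. Of the sugar precursor genes 2 were tested. Ugp2, which makes UDP-glucose, read 4.91 and 4.81 with o-HA, against 4.45 and 4.42 with n-HA (at least 1.01-fold higher with o-HA), and Ugcg, which uses it to make glucosylceramide, read 7.52 and 7.80 with o-HA, against 6.10 and 7.70 with n-HA.

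Signalling genes downstream of hyaluronan receptors gave few values above background. In the NF-kB and Toll-like receptor list 7 of 38 genes on the array were tested, 5 higher and 2 lower with o-HA. Irak2, a kinase of interleukin-1 and Toll-like receptor signals, read 6.86 and 6.70 with o-HA, against 5.84 and 5.71 with n-HA (1.01, SE 0.21), and 5.99 and 6.07 with o-HA, against 5.33 and 5.37 with n-HA on its second probe (0.68, SE 0.21). Myd88, the adaptor of the same receptors, read 7.68 and 7.77 with o-HA, against 8.84 and 8.33 with n-HA (-0.86, SE 0.25), so the 2 neighbours in the pathway stood on opposite sides. Vcam1, an adhesion molecule induced by NF-kB, was detected on the o-HA arrays only, at 4.77 and 5.04 with o-HA, against 4.31 and 4.38 with n-HA, and read 4.49 and 4.49 in untreated cells (at least 1.04-fold higher than n-HA). Tnfaip2 read 5.77 and 5.60 with o-HA, against 5.66 and 4.76 with n-HA. Among CD44 partners and the cortical cytoskeleton 6 of 10 genes were higher and 4 lower. Svil, the membrane-linked actin binder supervillin, read 6.51 and 5.82 with o-HA, against 4.31 and 4.93 with n-HA (1.54, SE 0.34), but 4.89 and 4.68 with o-HA, against 4.62 and 4.98 with n-HA on a dim second probe. Epb41l1, of the band 4.1 family, read 5.64 and 5.98 with o-HA, against 4.54 and 4.87 with n-HA (1.11, SE 0.25), and Msn, moesin, read 4.88 and 5.18 with o-HA, against 4.27 and 4.46 with n-HA. Mmp14, a membrane protease that cleaves CD44, read 9.08 and 8.88 with o-HA, against 9.92 and 9.36 with n-HA (-0.66, SE 0.27).

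Of the kinase genes of the MAP kinase, PI3K and Akt pathways, 7 were higher and 13 lower with o-HA. Cbl, a ubiquitin ligase for receptor tyrosine kinases, read 5.74 and 5.51 with o-HA, against 4.45 and 4.39 with n-HA (at least 1.71-fold higher with o-HA). Mapk14, the p38 alpha kinase, read 5.56 and 5.59 with o-HA, against 4.62 and 4.84 with n-HA (at least 1.66-fold higher), and Mapk9, the kinase JNK2, read 4.96 and 4.72 with o-HA, against 6.02 and 5.45 with n-HA (-0.90, SE 0.27). Map2k6, an activator of p38, read 4.86 and 5.02 with o-HA, against 4.28 and 4.46 with n-HA. Among growth factors and receptors 11 of 17 were higher and 6 lower. Igfbp4, which holds insulin-like growth factors, read 8.77 and 8.64 with o-HA, against 9.65 and 9.44 with n-HA (-0.84, SE 0.23) and, on a dimmer probe, 5.66 and 6.0 with o-HA, against 4.70 and 5.72 with n-HA. Acvr1, a type I receptor for bone morphogenetic proteins, read 5.14 and 4.96 with o-HA, against 5.88 and 5.97 with n-HA (-0.88, SE 0.25). The immediate early genes did not share a direction (3 higher, 4 lower). Sik1 read 7.07 and 7.19 with o-HA, against 5.40 and 7.25 with n-HA and Junb 6.25 and 6.64 with o-HA, against 5.32 and 6.74 with n-HA, and for both n-HA replicate 2 was level with or just above the o-HA arrays. Ier3 read 6.12 and 5.96 with o-HA, against 8.26 and 5.49 with n-HA, where the n-HA arrays lay on both sides of the o-HA arrays, and Sgk1 read 4.92 and 4.64 with o-HA, against 5.0 and 5.0 with n-HA.

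Lysosomal genes held several of the larger differences. Of 65 lysosome genes on the array 28 were tested, 17 higher and 11 lower with o-HA, with a median difference of 0.28, against -0.03 over all 4231 genes. Of these, 10 did not overlap on the higher side and 6 on the lower side (35.7% and 21.4%, against 25.6% and 23.6% of all genes). Of the higher ones, Atp6v1g1 was detected on no n-HA array and entered through the o-HA arrays alone. The list median was 0.25 with genes undetected in a group set at their bound. It was 0.01 against n-HA replicate 1 alone and 0.21 against n-HA replicate 2 alone. Beside Asah1, Idua, which degrades glycosaminoglycans, read 7.75 and 7.68 with o-HA, against 6.10 and 7.11 with n-HA (1.11, SE 0.37). Atp6v0d1, a subunit of the proton pump that acidifies lysosomes, read 9.19 and 9.0 with o-HA, against 6.67 and 8.32 with n-HA (1.60, SE 0.52) on its brightest probe and 7.38 and 6.91 with o-HA, against 4.61 and 6.33 with n-HA on a second, but 7.64 and 7.90 with o-HA, against 9.13 and 7.69 with n-HA on the remaining one. Atp6v1g1, of the same pump, read 4.90 and 5.39 with o-HA, against 4.51 and 4.30 with n-HA (at least 1.23-fold higher with o-HA). Ctsa, the protective protein of the lysosomal sialidase, read 8.96 and 8.61 with o-HA, against 5.30 and 7.88 with n-HA (2.19, SE 0.78), and the membrane protein gene Lamp1 11.48 and 11.57 with o-HA, against 10.56 and 11.33 with n-HA (0.58, SE 0.30). On the lower side stood Neu1, the sialidase, at 5.53 and 5.62 with o-HA, against 6.59 and 5.90 with n-HA (-0.66, SE 0.31), and the proton pump genes Atp6v0b at 9.52 and 9.34 with o-HA, against 10.15 and 9.77 with n-HA and Atp6v1f at 6.18 and 6.07 with o-HA, against 8.01 and 6.19 with n-HA, so subunits of 1 pump stood on both sides.

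Many lysosomal promoters carry the E-box CACGTG, the core of the site read by TFEB and related factors. It reads the same on both strands. RefSeq promoter windows of 300 bases on GRCm38.p6, from 250 bases before to 50 bases after a gene's start, held it in 8.09% of 27025 genes, in 392 of the 3494 tested genes with a window (11.2%), and in 7 of the 26 tested lysosome genes with a window. Of the 8 lysosome genes higher with o-HA without overlap that had a window, 4 held the motif, as did 3 of the 18 others. A match is only a description of the sequence, and these counts are small. Stretches upstream of the start are shown for Lamp1 and Ctsa, with each copy of the motif inside the stretch in capitals. The whole windows held 4 copies for Lamp1 and 2 for Ctsa, not all of which lie in the stretches. The stretch of Lamp1 is chr8:13159063-13159142 and that of Ctsa chr2:164833724-164833772, both on the plus strand.
Lamp1: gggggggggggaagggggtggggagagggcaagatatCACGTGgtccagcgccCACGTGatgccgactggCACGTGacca
Ctsa: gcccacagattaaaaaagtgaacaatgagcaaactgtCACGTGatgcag

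Lipid genes were more often higher with o-HA than with n-HA. Of 11 tested genes of cholesterol synthesis and uptake 10 had a higher and 1 a lower mean with o-HA, at a median difference of 0.31 (0.83 against n-HA replicate 1 and 0.25 against n-HA replicate 2). Against untreated cells the list median was 0.01 with o-HA and -0.36 with n-HA. Of the higher genes, Cyp51 was detected on no n-HA array and entered through the o-HA arrays alone. Cyp51, lanosterol demethylase, read 5.48 and 5.64 with o-HA, against 4.55 and 4.73 with n-HA (at least 1.64-fold higher with o-HA), and Mvd, mevalonate decarboxylase, read 9.07 and 8.85 with o-HA, against 7.63 and 8.71 with n-HA (0.79, SE 0.38). The exception was Hmgcs1, the synthase that makes HMG-CoA, at 8.39 and 8.51 with o-HA, against 10.25 and 8.90 with n-HA (-1.13, SE 0.44). Its difference had the opposite sign to Sqle, Cyp51 and Mvd of the same pathway. Without n-HA replicate 1, 1 of its 10 tested genes passed on the higher side, against 6.63% of all 3877 genes in that fit, and 0 on the lower, against 4.51%. Of 14 tested sphingolipid genes 9 were higher and 5 lower (median 0.40, or 0.37 with genes undetected in a group set at their bound). Of the 14, 7 did not overlap on the higher side and 0 on the lower (50% and 0%, against 25.6% and 23.6% of all genes). Of the higher ones, Smpd2 and Sphk1 were detected on no n-HA array and entered through the o-HA arrays alone. Such members could hardly fall on the lower side. Smpd2, a neutral sphingomyelinase, read 5.57 and 5.32 with o-HA, against 4.44 and 4.61 with n-HA (at least 1.51-fold higher with o-HA). Smpd1, the acid sphingomyelinase, read 8.44 and 8.57 with o-HA, against 5.99 and 8.20 with n-HA on its brighter probe and 7.94 and 8.18 with o-HA, against 9.0 and 8.12 with n-HA on the other, which pointed the opposite way. Sphk1, sphingosine kinase 1, was detected on the o-HA arrays only, at 5.08 and 4.77 with o-HA, against 4.46 and 4.52 with n-HA, and read 4.35 and 4.51 in untreated cells. The list median was 0.61 against n-HA replicate 1 and 0.02 against n-HA replicate 2. Against untreated cells it was 0.04 with o-HA and -0.40 with n-HA.

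Of 25 tested genes of fatty acid oxidation and peroxisomes 16 were higher and 9 lower (median 0.30, and 0.30 and 0.24 against each n-HA array). With undetected genes at their bound the median was 0.15. Against untreated cells the list median was 0.11 with o-HA and -0.20 with n-HA. Of the 25, 12 did not overlap on the higher side and 3 on the lower (48.0% and 12%, against 25.6% and 23.6% of all genes). Acaa2, the last enzyme of the mitochondrial beta-oxidation cycle, was higher with o-HA on all 3 of its probes, which read 7.03 and 6.63 with o-HA, against 5.07 and 5.92 with n-HA (1.33, SE 0.35), 5.88 and 6.17 with o-HA, against 4.86 and 5.46 with n-HA and 6.19 and 6.33 with o-HA, against 4.54 and 5.86 with n-HA. Etfb, which passes electrons from the same cycle to the respiratory chain, read 13.27 and 13.48 with o-HA, against 11.69 and 12.97 with n-HA on one probe (1.04, SE 0.43) and 11.46 and 11.71 with o-HA, against 11.52 and 11.64 with n-HA on the other. Pex6, of peroxisome assembly, read 7.55 and 7.25 with o-HA, against 8.88 and 8.07 with n-HA (-1.07, SE 0.32), but 7.57 and 7.60 with o-HA, against 6.38 and 7.73 with n-HA on a second probe. In the tricarboxylic acid cycle list 8 of 14 were higher and 6 lower. Pdk2, which shuts the pyruvate dehydrogenase complex, read 5.90 and 5.98 with o-HA, against 4.85 and 4.85 with n-HA (1.09, SE 0.22). Suclg2, a subunit of succinyl-CoA ligase, read 5.37 and 4.79 with o-HA, against 4.28 and 4.27 with n-HA (at least 1.18-fold higher with o-HA), and Ogdh, oxoglutarate dehydrogenase, read 10.14 and 10.49 with o-HA, against 8.58 and 9.99 with n-HA. Idh3a of the same cycle, given above, stood on the other side.

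Of 13 tested glycolysis genes 7 were higher and 6 lower (median 0.44, or 0.21 with undetected genes at their bound). Pfkp, a phosphofructokinase, read 8.05 and 8.60 with o-HA, against 5.64 and 7.59 with n-HA (1.71, SE 0.62), Pgam1 read 7.16 and 7.74 with o-HA, against 4.87 and 7.14 with n-HA, and Slc2a4, the insulin-responsive glucose transporter GLUT4, read 5.42 and 4.99 with o-HA, against 4.55 and 4.50 with n-HA (at least 1.28-fold higher with o-HA). Hk2, hexokinase 2, read 6.01 and 6.24 with o-HA, against 8.13 and 6.39 with n-HA, where n-HA replicate 1 alone stood high. The respiratory chain leaned the other way, with 24 of 62 tested genes higher and 38 lower (median -0.17). Ndufv2 and Ndufa13, subunits of complex I, read 5.23 and 5.50 with o-HA, against 7.13 and 5.88 with n-HA (-1.14, SE 0.42) and 5.26 and 5.40 with o-HA, against 6.83 and 5.92 with n-HA (-1.04, SE 0.34). Cox7b, of complex IV, read 5.32 and 5.47 with o-HA, against 5.74 and 6.16 with n-HA (-0.55, SE 0.25), with n-HA replicate 2 the higher n-HA array. Uqcrb, of complex III, was on the other side, at 5.21 and 5.13 with o-HA, against 4.39 and 4.52 with n-HA. The list median was -0.28 against n-HA replicate 1 and 0.0022 against n-HA replicate 2.

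Translation genes showed no common direction. Of 47 tested cytosolic ribosomal protein genes 20 were higher and 27 lower (median -0.08), 8 without overlap on the higher side and 15 on the lower (17.0% and 31.9%, against 25.6% and 23.6% of all genes). The list median was -0.10 against n-HA replicate 1 and -0.05 against n-HA replicate 2. Rps27 read 6.61 and 6.39 with o-HA, against 7.08 and 7.16 with n-HA (-0.62, SE 0.21) and Rps21 5.35 and 5.47 with o-HA, against 7.43 and 6.02 with n-HA (-1.31, SE 0.47), while Rpl21 read 5.50 and 5.46 with o-HA, against 4.90 and 4.75 with n-HA (0.65, SE 0.23). Mitochondrial ribosomal protein genes split 19 to 23. Mrpl42 read 10.21 and 10.07 with o-HA, against 8.97 and 9.39 with n-HA (0.96, SE 0.25), Mrps22 8.09 and 8.06 with o-HA, against 6.39 and 7.53 with n-HA and Mrpl17 9.76 and 9.46 with o-HA, against 11.13 and 10.07 with n-HA. Translation factors split 15 to 10, where Eif2b5, a subunit of the exchange factor for eIF2, read 7.47 and 7.88 with o-HA, against 5.22 and 6.94 with n-HA (1.59, SE 0.55) on its brightest probe, and 5.30 and 5.22 with o-HA, against 5.68 and 5.72 with n-HA and 4.49 and 4.79 with o-HA, against 4.96 and 4.84 with n-HA on the others. Eif6, which keeps ribosomal subunits apart, read 4.86 and 5.20 with o-HA, against 6.51 and 5.41 with n-HA. Splicing factor and hnRNP genes split 15 to 17. Rbm39 read 5.89 and 5.85 with o-HA, against 4.79 and 4.69 with n-HA (at least 2.04-fold higher with o-HA), Hnrnpa2b1 6.0 and 6.41 with o-HA, against 5.04 and 5.42 with n-HA (0.98, SE 0.26) and Srsf5, a splicing activator, 7.34 and 7.88 with o-HA, against 5.08 and 6.81 with n-HA (1.67, SE 0.56). Of proteasome and ubiquitin genes 11 were higher and 21 lower (median -0.18, but -0.35 and 0.017 against n-HA replicates 1 and 2). Psmc2, an ATPase of the proteasome cap, read 5.67 and 5.45 with o-HA, against 6.68 and 6.33 with n-HA (-0.94, SE 0.24), and Ube2e2, a ubiquitin-conjugating enzyme, 6.90 and 7.15 with o-HA, against 7.93 and 7.60 with n-HA (-0.73, SE 0.24).

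The cells carried cardiac muscle markers on all arrays. Of the 10 atrial cardiomyocyte markers, Myl4, Tnnc1, Actc1, Nppa, Atp2a2, Nkx2-5 and Myh6 were detected on all 6 arrays and Gja1 on 5. Myl7 was detected on 3 and was not tested, and Tnnt2 was not analysed here. Myh6, the fast heavy chain of atrial myosin, read 5.23 and 5.55 with o-HA, against 5.63 and 5.77 with n-HA (-0.31, SE 0.23, 95% interval -0.87 to 0.26). Myl4, the atrial essential light chain, read 11.65 and 11.81 with o-HA, against 13.27 and 11.73 with n-HA (-0.77, SE 0.50), with 1 n-HA array far above and the other level with o-HA. Tnnc1, troponin C of slow and cardiac muscle, read 10.09 and 10.13 with o-HA, against 10.74 and 10.41 with n-HA (-0.46, SE 0.23), and 11.26 and 11.40 in untreated cells. All 4 hyaluronan arrays lay below both untreated arrays for Tnnc1, and the o-HA arrays were the lowest. Myl3, the ventricular essential light chain, read 5.58 and 5.46 with o-HA, against 7.04 and 6.27 with n-HA (-1.14, SE 0.31), and Mybpc3, myosin-binding protein C, stood on the other side at 10.53 and 10.75 with o-HA, against 9.03 and 10.05 with n-HA (1.10, SE 0.36). Of 25 tested sarcomere genes 10 were higher and 15 lower with o-HA (median -0.15, and -0.23 and -0.02 against each n-HA array).

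The natriuretic peptides differed from each other. Nppb, the brain natriuretic peptide, read 7.48 and 7.26 with o-HA, against 6.57 and 6.80 with n-HA (0.68, SE 0.26, 95% interval 0.04 to 1.32), and 6.20 and 6.67 in untreated cells, so the 2 o-HA arrays were the highest of all 6. Nppa, the atrial natriuretic peptide, read 7.22 and 7.45 with o-HA, against 7.73 and 7.25 with n-HA (-0.15, SE 0.26, 95% interval -0.79 to 0.49), with overlapping groups. Of 10 tested genes of the hypertrophy and foetal programme Nppb was 1 of 2 that were higher, and 8 were lower. Rcan1, a calcineurin inhibitor, read 7.79 and 7.74 with o-HA, against 8.92 and 8.04 with n-HA, and Furin, which processes the natriuretic peptides, read 9.60 and 9.70 with o-HA, against 10.19 and 9.97 with n-HA. The list median, -0.26, was -0.71 against n-HA replicate 1 and 0.12 against n-HA replicate 2. The calcium pump gene of the sarcoplasmic reticulum, Atp2a2, read 5.92 and 5.76 with o-HA, against 6.43 and 6.69 with n-HA on its dim probe (-0.72, SE 0.23) and 11.60 and 11.69 with o-HA, against 12.07 and 11.69 with n-HA on its bright probe (-0.24, SE 0.26), where the groups overlapped. Slc8a1, the sodium-calcium exchanger, read 8.19 and 8.47 with o-HA, against 9.56 and 8.98 with n-HA (-0.94, SE 0.28). Atp1b1, a subunit of the sodium pump, stood on the other side at 11.23 and 11.60 with o-HA, against 10.16 and 10.94 with n-HA (0.86, SE 0.33). Gja1, connexin 43 of gap junctions, read 5.20 and 5.07 with o-HA, against 5.46 and 5.68 with n-HA (-0.44, SE 0.24). Of the heart transcription factors, Nkx2-5 read 5.54 and 5.27 with o-HA, against 5.07 and 5.71 with n-HA (95% interval of the difference -0.68 to 0.72), Tbx5 6.73 and 6.54 with o-HA, against 4.89 and 6.31 with n-HA and Mef2c 7.02 and 6.11 with o-HA, against 7.70 and 7.10 with n-HA, and none separated both n-HA arrays from the o-HA arrays by more than 1 log2 unit.

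**Figure D4:**
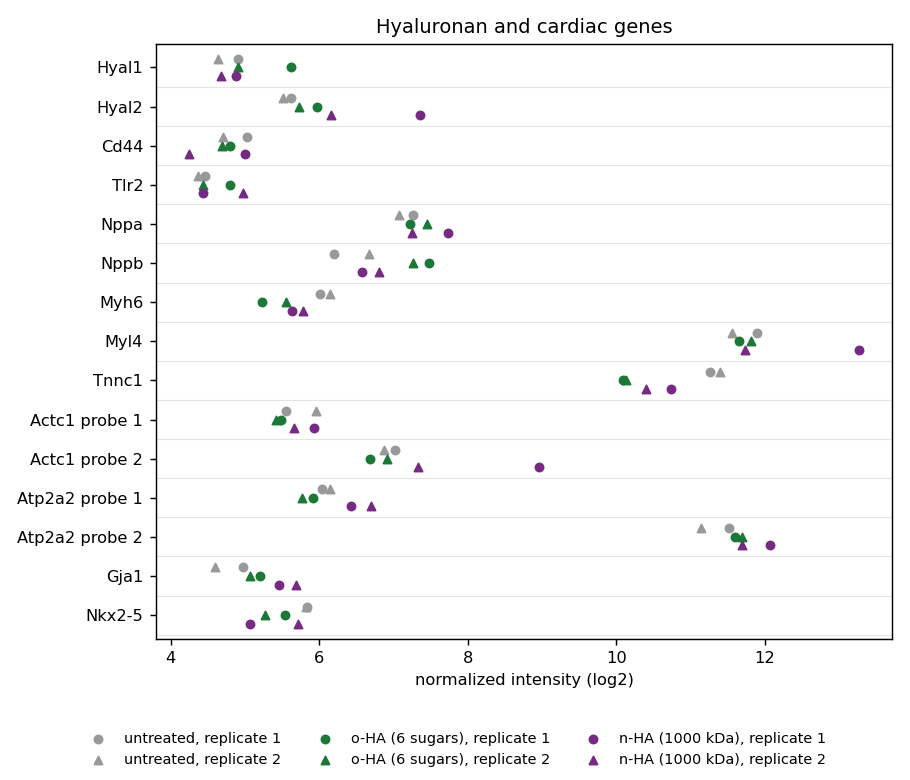
Normalized intensity (log2, horizontal axis) on each of the 6 arrays for the tested genes of the hyaluronan and cardiac panel, 1 point per array. The 2 o-HA points of Nppb (7.48 and 7.26) lie above all other arrays, the Tnnc1 points of both hyaluronan groups lie below the untreated ones, and Nppa, Cd44, Tlr2 and Nkx2-5 overlap between groups.

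Genes of cell adhesion were more often lower than higher with o-HA. In the integrin and matrix list 8 of 25 were higher and 17 lower (median -0.24, and -0.24 and -0.13 against each n-HA array). Itga6, an integrin subunit for laminins, read 4.68 and 4.97 with o-HA, against 5.51 and 5.61 with n-HA (-0.74, SE 0.26), Hspg2, perlecan of basement membranes, 9.56 and 9.71 with o-HA, against 10.40 and 10.12 with n-HA (-0.63, SE 0.23), and Plod3, a collagen-modifying enzyme, 4.75 and 5.03 with o-HA, against 6.19 and 5.66 with n-HA (-1.03, SE 0.27). Sdc1, the proteoglycan syndecan 1, was on the other side at 6.22 and 6.08 with o-HA, against 4.45 and 5.57 with n-HA (1.14, SE 0.39). Without n-HA replicate 1, 3 of 22 genes of this list passed on the lower side, against 4.51% of all genes in that fit, and 0 on the higher, against 6.63%.

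Cell cycle genes split 21 higher to 19 lower. Ung, which removes uracil from DNA, read 6.74 and 6.82 with o-HA, against 4.61 and 5.42 with n-HA (1.77, SE 0.32), and a second probe 5.85 and 5.62 with o-HA, against 6.04 and 4.40 with n-HA. Cdk2, a kinase of DNA synthesis, read 5.64 and 5.91 with o-HA, against 4.57 and 4.42 with n-HA (at least 1.91-fold higher with o-HA), and 4.96 and 4.93 with o-HA, against 4.74 and 4.68 with n-HA on a dimmer probe. Cdkn2c, an inhibitor of the cyclin D kinases, read 5.97 and 5.98 with o-HA, against 5.26 and 5.21 with n-HA (0.74, SE 0.21), whereas Cenpa, the histone variant of centromeres, read 6.42 and 6.34 with o-HA, against 8.03 and 7.21 with n-HA (-1.24, SE 0.32). Without n-HA replicate 1, 6 of 39 genes of this list passed on the higher side and 1 on the lower, where 6.63% and 4.51% of all genes did. Of 10 tested p53 targets 6 were higher and 4 lower (median 0.41, or 0.18 with undetected genes at their bound). Phlda3, an inhibitor of Akt, read 6.05 and 5.55 with o-HA, against 4.65 and 4.84 with n-HA (at least 1.94-fold higher with o-HA), and Sesn1 and Sesn2, which restrain mTOR signalling, read 4.99 and 5.14 with o-HA, against 4.34 and 4.26 with n-HA and 4.98 and 4.97 with o-HA, against 4.44 and 4.39 with n-HA. Ei24 read 4.65 and 4.47 with o-HA, against 5.43 and 5.05 with n-HA and was detected on no o-HA array. Of apoptosis regulators 5 were higher and 8 lower. Grina, a transmembrane protein that protects from cell death, read 7.83 and 7.86 with o-HA, against 9.34 and 8.20 with n-HA (-0.92, SE 0.39), and 6.86 and 6.69 in untreated cells, so both hyaluronan groups were above the untreated arrays. Casp4, an inflammatory caspase, read 4.57 and 4.46 with o-HA, against 4.94 and 5.17 with n-HA (at least 1.25-fold lower with o-HA).

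Chromatin genes split 12 to 10. Ehmt2, the partner enzyme of Ehmt1, read 6.85 and 7.02 with o-HA, against 7.36 and 7.57 with n-HA (-0.53, SE 0.22), and 6.05 and 6.26 with o-HA, against 7.13 and 6.68 with n-HA on its other probe, both lower with o-HA, whereas the leading Ehmt1 probe was higher. Ezh2, the methyltransferase of the polycomb complex, read 6.0 and 5.98 with o-HA, against 5.55 and 5.53 with n-HA (0.45, SE 0.21), and Ring1, of the other polycomb complex, 5.60 and 5.57 with o-HA, against 6.76 and 5.82 with n-HA (-0.70, SE 0.35). Of heat shock proteins 10 were higher and 8 lower. Hspa8, the constitutive cytosolic chaperone, read 12.20 and 12.10 with o-HA, against 8.41 and 11.47 with n-HA (2.21, SE 0.91), the largest difference of this list, but 6.75 and 7.01 with o-HA, against 7.29 and 7.32 with n-HA on a dimmer probe. Hspb8, a small heat shock protein of muscle, read 5.65 and 5.59 with o-HA, against 4.58 and 5.07 with n-HA (0.79, SE 0.25). Of chaperones and unfolded protein response genes 8 were higher and 5 lower. Calr, calreticulin, read 5.32 and 5.42 with o-HA, against 4.34 and 4.48 with n-HA (at least 1.44-fold higher with o-HA), and Xbp1, a transcription factor of that response, 7.12 and 7.23 with o-HA, against 8.02 and 7.70 with n-HA (-0.69, SE 0.23). Nqo1, a quinone reductase induced by Nrf2, read 5.70 and 5.84 with o-HA, against 4.34 and 5.30 with n-HA (0.95, SE 0.35), Sod1, superoxide dismutase, 5.55 and 5.57 with o-HA, against 6.91 and 5.82 with n-HA and Prdx1, a peroxidase, 5.08 and 4.92 with o-HA, against 5.47 and 5.72 with n-HA. Of hypoxia genes 6 were higher and 2 lower, among them Vegfa, the vascular growth factor, at 6.07 and 6.15 with o-HA, against 5.92 and 5.13 with n-HA, where n-HA replicate 2 was the lower n-HA array (difference without n-HA replicate 1 1.02, adjusted p = 0.0111).

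Of 17 tested interferon-stimulated genes 12 were higher and 5 lower (median 0.12, and 0.36 and 0.29 against each n-HA array). Ifitm2, a membrane protein that blocks virus entry, read 9.65 and 9.83 with o-HA, against 8.03 and 9.27 with n-HA (1.09, SE 0.42), and Irf1, a transcription factor of that response, 6.50 and 6.71 with o-HA, against 5.21 and 6.25 with n-HA (0.88, SE 0.37), with 5.04 and 5.09 with o-HA, against 4.73 and 4.42 with n-HA on a second probe. H2-K1, of antigen presentation, was on the other side at 4.37 and 4.91 with o-HA, against 5.27 and 5.69 with n-HA (-0.84, SE 0.28). Reference genes split 6 to 4. Tubb5, a beta-tubulin, read 13.20 and 13.27 with o-HA, against 13.84 and 13.68 with n-HA (-0.53, SE 0.21), Tbp 6.09 and 6.01 with o-HA, against 5.70 and 5.92 with n-HA and Tfrc, the transferrin receptor, 10.94 and 10.78 with o-HA, against 8.93 and 10.26 with n-HA (1.26, SE 0.44). Gapdh and Actb, on their brightest probes, stood near 0, at -0.05 and 0.11.

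Markers of other cells that a culture could hold were few. Of 18 fibroblast markers 2 were tested, both higher with o-HA, where Vim read 7.35 and 7.11 with o-HA, against 4.51 and 6.76 with n-HA and Sparc 11.02 and 11.21 with o-HA, against 8.20 and 11.13 with n-HA, in each case with n-HA replicate 1 alone far below. Of smooth muscle markers 3 of 7 were higher and 4 lower. Acta2, smooth muscle actin, read 11.90 and 12.27 with o-HA, against 13.36 and 12.33 with n-HA on its brightest probe. Des, desmin, which cardiomyocytes also make, read 8.94 and 8.71 with o-HA, against 9.43 and 9.41 with n-HA (-0.59, SE 0.23). Endothelial markers gave 3 tested genes (1 higher, 2 lower) and leukocyte markers 3 (1 higher, 2 lower). Their part in the differences between groups was not tested.

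**Figure D5:**
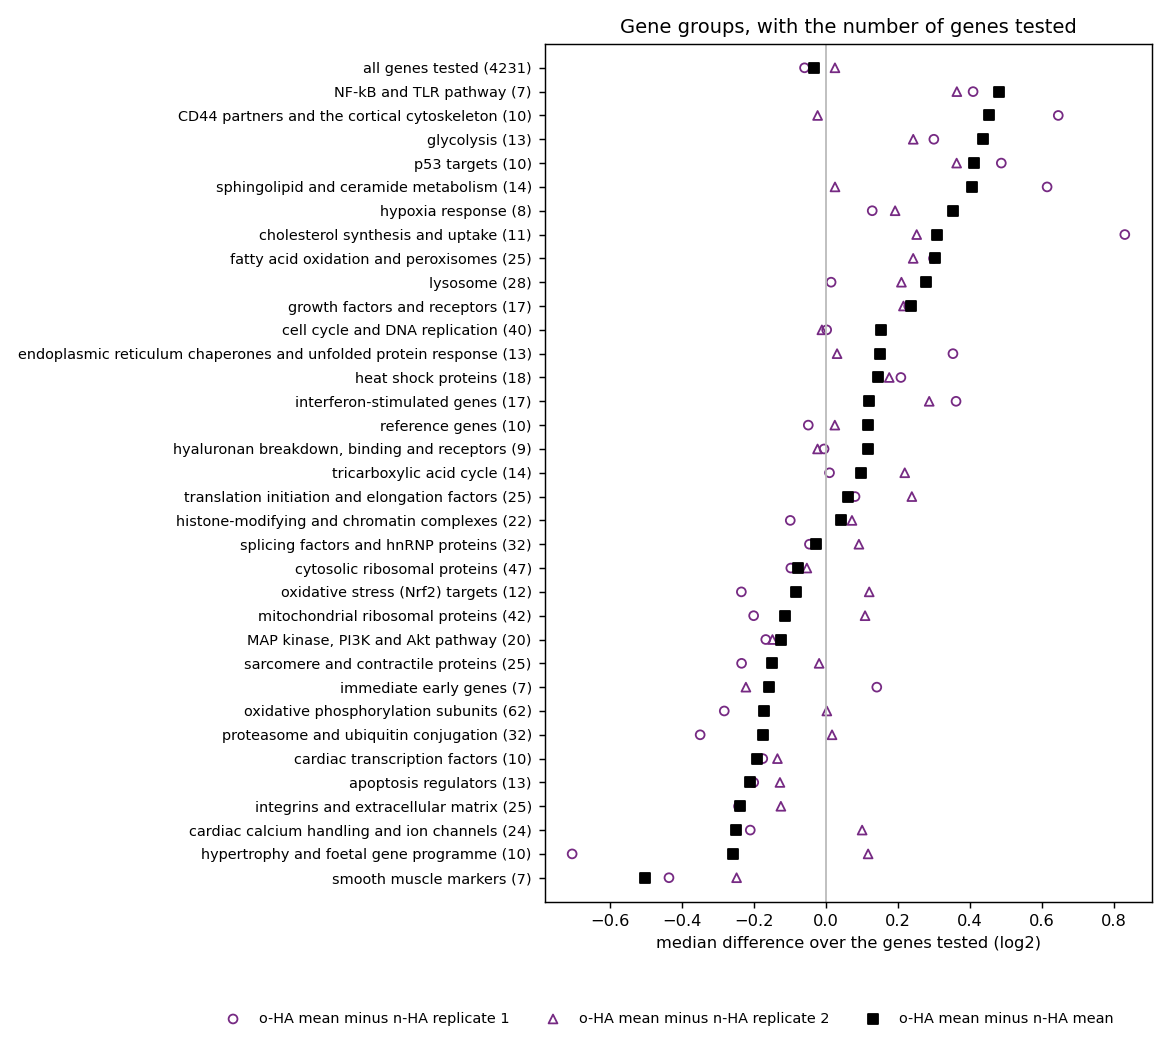
Median difference on the log2 scale (horizontal axis) for the 34 gene groups with at least 5 tested genes and for all genes, with the number of genes tested in parentheses. Squares give the o-HA mean minus the n-HA mean, circles and triangles the o-HA mean minus n-HA replicate 1 and 2. Both n-HA arrays give a median above 0 for 14 groups and below 0 for 8, and all genes lie at -0.03.

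Across the 38 gene groups described, 0 genes passed with all 6 arrays. Of the 34 groups with at least 5 tested genes, the median was above 0 in 19 and below 0 in 15. Against each n-HA array taken alone it was above 0 on both in 14 groups and below 0 on both in 8, so in the other 12 the 2 n-HA arrays disagreed in sign. The n-HA arrays share the o-HA arrays in this count, so it is a description of the arrays and no test of the groups. The detection filter let in more probes seen on both o-HA and neither n-HA array (508) than the reverse (106). Members that entered in this way favour the higher side in all counts and medians of the groups.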

How the data were processed

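Total RNA of HL-1 cells was amplified, biotin-labelled and read on a MouseRef-8 beadchip, per the study's methods. The authors deposited bead intensity for every probe and array before normalization, made with BeadStudio (3.3, as the submitters' processing notes give it), together with a detection p-value taken against negative control beads. The deposited table of normalized intensity, which the authors scaled by cubic spline, served as an alternative. A probe was covered by a median of 41 beads on each array, and precision is limited by the small number of arrays.

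Background was corrected with neqc of limma 3.58.1 in R 4.3.3, which took its negative controls from the deposited detection p-values and added an offset of 16, followed by quantile normalization and log2. Probes detected (p under 0.05) on 2 or more of the 4 hyaluronan arrays were tested. Means of the 3 groups were fitted to all 6 arrays with lmFit and eBayes, and every adjusted p in the text is from limma's two-sided test with Benjamini-Hochberg adjustment over all probes tested, at a threshold of 0.05. SE is the moderated standard error, with 2 arrays per group. It takes 1 spread per probe over all 3 groups. The SD of replicate differences was 0.262 untreated, 0.264 with o-HA and 0.979 with n-HA, so SEs and intervals do not carry the wider n-HA spread in full. By limma with the 4 hyaluronan arrays alone, 381 probes had an unadjusted p under 0.05, against 796 with all 6. The labels do not say whether replicates were separate cultures, so p-values measure only the spread between these samples. A fold is given as a lower bound where a group had no array on which the probe was detected. It sets the mean of the brighter group against the lowest intensity still detected on each array of the other. Gene groups were summarised on the brightest tested probe of each gene, and median differences are not tests. Levels of different probes were not compared.

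Of the 25697 probes 23978 carried 1 gene symbol, 0 several and 1719 none. The scripts were tested on simulated data with the same spread in every group. The wider spread of the n-HA arrays was not simulated. The 38 gene lists held 1678 entries, of which 1485 had a probe and 689 a tested probe. Genes were named by a rule. It took the 12 smallest p-values in each direction among non-overlapping probes (since none passed), the 10 largest each way that passed without n-HA replicate 1, up to 8 genes each way whose every probe agreed, up to 4 genes of smallest p-value per list, and a panel of hyaluronan and cardiac genes. Second probes and the genes Ctsa, Lamp1, Neu1, Atp6v0b, Atp6v1f, Gapdh and Actb were added after their values were seen. The members and lists were chosen with earlier results of these data known. The alternatives were other background corrections, offsets, normalizations and filters, array weights, the hyaluronan arrays alone, the replicate number as a block, and each array left out in turn. Promoter sequences are from RefSeq on GRCm38.p6.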

Additional observations from a re-analysis of the deposited data

How the results depend on the processing

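No probe passed in the settings that kept all 6 arrays, apart from that with no normalization between arrays, where 1179 probes passed on the higher side and 0 on the lower, the median of all probes then lying at 0.45. The replicate numbers were not shown to pair the arrays, since deviations of same-numbered o-HA and n-HA arrays correlated at -0.05 and the labels name no shared culture. With the replicate block 0 probes passed (lowest adjusted p = 0.371, limma), 702 had an unadjusted p under 0.05 against 796 without it, and no other call changed. Leaving out each array in turn, between 0 and 1572 probes passed on the higher side and between 0 and 1450 on the lower, with 370 and 210 without n-HA replicate 1, 1572 and 1450 without n-HA replicate 2, and 0 without any other array. Without n-HA replicate 1, 472 were higher and 193 lower with the authors' normalized values, and 2459 were higher and 0 lower with no normalization, at a median of 0.81. These 2 settings were chosen after seeing the data. Probes whose arrays did not overlap numbered 2947 higher and 137 lower with no normalization. They numbered 648 higher and 946 lower among probes detected on all 4 hyaluronan arrays. With no filter on dim probes they numbered 4609 higher and 4898 lower, so the larger side changed with the filter. Non-overlapping probes ranged from 1267 to 2313 (higher) and 1184 to 2362 (lower) with each array left out. With the authors' normalized values and without n-HA replicate 1 they numbered 2195 and 1800, and with no normalization and without that array 4327 and 155. The cause of these shifts was not tested. Of 181 named probes 170 kept their sign under every one of the 17 alternatives in which they were tested, and 11 did not. With no normalization, the median of all probes (0.45) was first subtracted from each difference. The sign kept there is relative to that median and is not the sign of the unnormalized difference. The medians of the gene groups were treated the same way. Not every probe was tested under each alternative, as with detection on all 4 hyaluronan arrays, where 119 were. A probe named for non-overlapping arrays could hardly change sign when an array was left out. With no normalization, and relative to the median of all probes, Nppa turned to 0.28 and Cd44 to -0.21. With cyclic loess Tlr2 turned to 0.0051 and Nkx2-5 to -0.050. With each array left out, Sparc ranged from -0.010 to 2.92, Itih4 from -0.024 to 2.16, Myl4 from -1.52 to 0.0071, Ugcg from -0.039 to 1.58, Sik1 from -0.12 to 1.78, Ier3 from -2.24 to 0.58, Junb from -0.29 to 1.17, Nppa from -0.39 to 0.089, Cd44 from -0.28 to 0.17, Tlr2 from -0.37 to 0.11 and Nkx2-5 from -0.32 to 0.37. Of the 34 gene groups, 15 to 22 had a median above 0 across the alternatives, against 19 in the report.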
